A study of Mus musculus with 8 samples.

Results

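Cells that carried bright GFP in the cochlea of newborn mice were compared with the cells of the same organ that carried none. The comparison held the 2 libraries titled as P1 GFP+ and the 2 titled as P1 GFP-, which are 4 of the 8 RNA-seq libraries of the series, and they were taken by their titles alone. The other 4 libraries, GFP+ and GFP- cells at P6 (postnatal day 6), are used only to set the P1 values (postnatal day 1) beside a later age. All mice were Lfng-GFP transgenics of the line B6;FVB-Tg(Lfng-EGFP)HM340Gsat/Mmucd, so the GFP- cells carried the same transgene without its fluorescence. In this line a bacterial artificial chromosome with sequences of *Lfng*, a gene of supporting cells, drives the reporter. Cochleas were freshly dissected and not cultured, the brightest cells were taken as GFP+, and cells of intermediate brightness were not collected, so that the 2 fractions do not add up to the whole organ. By the methods of the study, the reporter marks border, inner phalangeal, outer pillar and Deiters' cells but not inner pillar cells. At P1 the duct was freed of the modiolus, and lateral wall, Reissner's membrane and stria vascularis were dissected off, whereas at P6 they were taken off only in part. The dissection limits the cell types that the GFP- fraction could hold. No sex, number of pooled animals or animal identity is given for the libraries, so p-values measure the spread between libraries, which may be technical.

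The organ of Corti is a strip of hair cells, which turn sound into electrical signals, and of supporting cells, which hold them in place and keep the ionic composition of the fluids around them. Around this strip lie the greater epithelial ridge, the lateral wall with its pigmented stria vascularis, fibrocytes derived from the otic mesenchyme, cartilage and bone, vessels, resident macrophages, and the neurons and glia of the auditory nerve. Around birth supporting cells have largely stopped dividing and are coupled to hair cells through Notch signaling, with *Hes5* and *Hey* genes as targets. The sort therefore separates 1 part of the sensory epithelium from a mixture of very different cells.

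The 4 P1 libraries held between 24891692 counts on genes (GFP+ replicate 2) and 63105067 (GFP- replicate 2). A normalized count is a gene's count divided by the effective size of its library and scaled to the mean size of the 4 libraries. The replicates of a fraction differed by more than sampling noise, and those of GFP- cells by more (chi-square per degree of freedom of 41.1, where sampling noise gives 1) than those of GFP+ cells (15.1). *Lfng*, the gene whose sequences drive the reporter and by which cells were in effect chosen, had 105672 and 116569 normalized counts in the GFP+ libraries and 678 and 1267 in the GFP- libraries. This difference is the sort itself and is given only as a check of the labels.

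The quasi-likelihood test of edgeR was run on every gene, and a gene was called when p and the adjusted p were below 0.01 and the fold was above 4. Of 18682 genes tested at P1, 1206 were called higher in GFP+ cells, which is 6.46% of all genes tested, and 2125 higher in GFP- cells, which is 11.4%. The median log2 fold change over all genes tested was 0.01, which the TMM scaling sets near 0, and -0.10 with library totals only. The libraries of the 2 fractions overlapped in 0 of the called genes of either direction and in 3811 of all 18682 genes tested. Separation of the libraries thus comes with the call and adds no support to it. Protein-coding genes made up 977 of the calls in GFP+ and 1947 of those in GFP- cells. The 2 gene tables of the study meant here and below are those of its top genes and its gene ontology terms in P1 GFP+ cells. Of their 104 genes, 103 were called higher in GFP+ cells, and *Fgf10* was the exception. The tables were drawn up from these same libraries, so that this count is not independent evidence. The other 1103 genes called in GFP+ cells lie outside those tables and are the ones described here. Some of them, such as *Rorb*, *Trh*, *Sox21*, *Lgr5*, *Igfbp5* and *Gpc1*, are reported in other tables of the study. Others, such as the deafness genes *Pou4f3*, *Loxhd1* and *Cabp2*, are named in its text as enriched at P1.

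Of 22 lists of marker genes, those of mesenchyme, melanocytes, macrophages, osteoblasts, erythroid cells and neurons had their medians far to the GFP- side, and those of supporting cells, epithelium and hair cells to the GFP+ side. A list is described by how many of its members were called and by its median log2 fold change, to be read beside the 6.46% and 11.4% of all genes. In such bulk libraries, fewer cells of a type and less RNA per cell cannot be told apart. In several lists, members at low counts passed the filter only through the fraction in which they are higher. They include *Tyr*, *Mlana*, *Ibsp* and *Dmp1*. Such members could be called in that direction only, so an absence of calls in the other direction says nothing of them. The counts of several lists moved by over 1.5 times as single libraries were left out. Those in GFP- cells ranged from 3 to 14 for neurons, 2 to 5 for microtubules, 0 to 3 for the greater epithelial ridge, 1 to 3 for the lateral wall, 1 to 6 for other leukocytes and 0 to 2 for both skeletal muscle and epithelium. Those in GFP+ cells ranged from 3 to 5 for microtubules (6 with all libraries), 0 to 1 for neurons and 0 to 2 for the greater epithelial ridge.

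**Figure D1:**
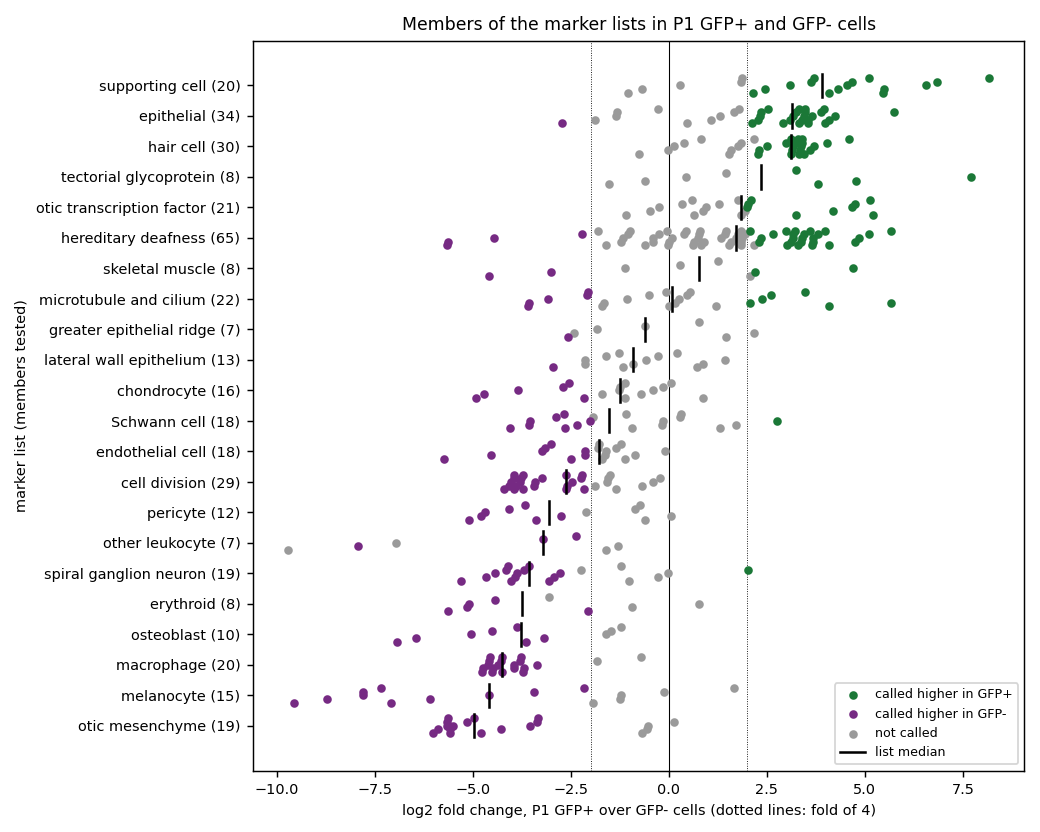
Log2 fold change of P1 GFP+ over GFP- cells (horizontal axis) for every tested member of the 22 marker lists (rows, with the number tested), 1 point a gene. Green points were called higher in GFP+ cells, purple points higher in GFP- cells, grey points were not called, and the bar is the list's median. The mesenchyme list has the lowest median, -4.96, and the supporting cell list the highest, 3.89.

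Melanocyte genes were among those furthest on the GFP- side. Pigment cells of neural crest origin populate the stria vascularis, where as intermediate cells they help to generate the endocochlear potential. Of the 15 genes of the melanocyte list, all were tested, 10 were called higher in GFP- cells and 0 in GFP+ cells by edgeR, and the list's median log2 fold change was -4.59. *Tyr*, tyrosinase, the rate-limiting enzyme of melanin synthesis, had 4.69 and 1.66 normalized counts in the GFP+ libraries against 1723 and 1392 in the GFP- libraries. *Dct*, dopachrome tautomerase (chromosome 14, 118412014 to 118451468 in NCBIM37), had 34.7 and 106 against 12654 and 8196. Both GFP- libraries lay far above both GFP+ libraries for each of these genes, with log2 fold changes of -8.72 ± 0.31 and -7.34 ± 0.49 (log2 ± SE, adjusted p = 1.40e-05 and 9.56e-05 by edgeR).

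The promoters of 3 of the 4 defining melanocyte genes (*Tyr*, *Dct* and *Tyrp1*) are shown because MITF, the transcription factor that governs this lineage, is known to bind the E-box CATGTG. The sequences are the 250 bases before the RefSeq start of each gene, 5′ to 3′ on the gene's strand in GRCm38.p6, and capitals mark CATGTG on either strand (CACATG on the other). *Tyr* is at chr7:87493513-87493762 on the minus strand, *Dct* at chr14:118052247-118052496 on the minus strand and *Tyrp1* at chr4:80833963-80834212 on the plus strand.
Tyr: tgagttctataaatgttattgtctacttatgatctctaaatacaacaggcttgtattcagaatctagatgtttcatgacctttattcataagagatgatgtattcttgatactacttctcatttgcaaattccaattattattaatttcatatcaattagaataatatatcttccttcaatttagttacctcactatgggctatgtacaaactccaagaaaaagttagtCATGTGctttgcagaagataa
Dct: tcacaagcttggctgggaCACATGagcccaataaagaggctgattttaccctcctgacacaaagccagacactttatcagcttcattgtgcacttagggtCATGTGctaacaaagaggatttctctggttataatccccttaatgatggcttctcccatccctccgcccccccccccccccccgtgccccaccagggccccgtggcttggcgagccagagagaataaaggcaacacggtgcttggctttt
Tyrp1: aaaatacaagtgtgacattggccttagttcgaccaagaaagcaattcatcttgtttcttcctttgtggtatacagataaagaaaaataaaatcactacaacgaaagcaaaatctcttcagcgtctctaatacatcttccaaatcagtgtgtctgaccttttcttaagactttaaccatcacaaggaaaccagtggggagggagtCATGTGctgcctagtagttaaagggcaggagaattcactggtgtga
The E-box began 21 bases before the start in *Tyr* and 46 bases before it in *Tyrp1*, and *Dct* held 2, at 232 and 150 bases. Of the 10 genes of the melanocyte list with such a window, 6 held the hexamer, as did 12.3% of all 32536 promoter windows. The match describes letters in these windows and says nothing of binding in these cells.

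Other members of the melanocyte list were also far lower in GFP+ cells. *Tyrp1*, which acts beside tyrosinase, had 123 and 73.6 normalized counts in the GFP- libraries and a single count over both GFP+ libraries, a ratio of 153 with a 95% exact counting interval of 27.3 to 6083. *Mlana*, the melanosomal antigen MART-1, had no count in either GFP+ library and in GFP- cells was at least 22.9-fold higher, taking a floor of 3 counts per library. Such intervals and floors cover counting error only. *Pmel*, the fibril protein of the melanosome, was less far apart, with 164 and 181 against 4543 and 3747 normalized counts and a log2 fold change of -4.59 ± 0.15 (adjusted p = 1.16e-05 by edgeR). *Slc45a2*, a melanosomal transporter, and *Trpm1*, a cation channel of melanocytes, had log2 fold changes of -7.80 and -6.09. *Mitf* itself, also made by other cells, differed far less (324 and 282 against 1526 and 1201 normalized counts, log2 fold change -2.16 ± 0.17).

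The 5 members of this list that were not called were *Kcnj10*, *Oca2*, *Kit*, *Ednrb* and *Slc24a5*. *Kit*, *Ednrb* and *Slc24a5* had log2 fold changes of -1.95, -1.22 and -1.26, below the fold criterion. *Kcnj10*, the potassium channel of intermediate cells that glia-like cells also use, had 5582 and 5189 normalized counts in GFP+ and 1527 and 1877 in GFP- libraries, a log2 fold change of 1.66. *Oca2*, a melanosomal transporter, had 65.6 and 33.2 against 31.2 and 76.7 and its libraries overlapped. *Gpnmb*, a glycoprotein of melanosomes and of macrophages that was on none of the lists, had 6.56 and 28.2 against 2936 and 2119.7. *Pax3*, a transcription factor of the neural crest, was 254-fold higher in GFP- cells by its counts (95% exact counting interval 45.4 to 10071), with 1 count over both GFP+ libraries.

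**Figure D2:**
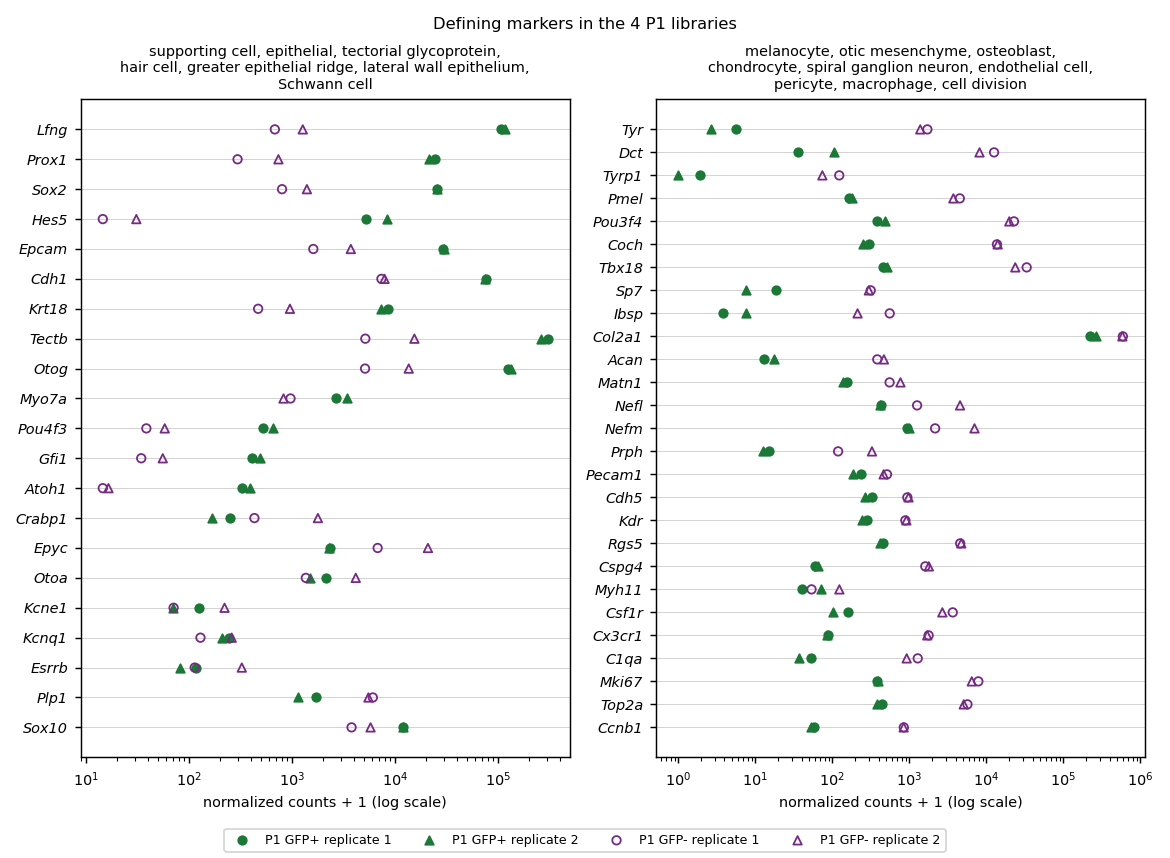
Normalized counts + 1 on a log scale for defining markers of the lists in each of the 4 P1 libraries. Filled green symbols are GFP+, open purple symbols GFP-, circles replicate 1 and triangles replicate 2. *Tyr*, *Dct* and the mesenchymal genes lie to the right in GFP- cells, *Atoh1*, *Gfi1* and *Pou4f3* to the right in GFP+ cells, and the GFP- replicates of *Epyc*, *Nefl* and *Nefm* lie apart from each other.

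Otic mesenchyme, which surrounds the duct and gives rise to the fibrocytes of the lateral wall and limbus, had the list with the lowest median of all. All 19 members of its list were tested, 15 were called higher in GFP- cells and 0 in GFP+ cells, and the median log2 fold change was -4.96. The normalized counts of the list summed to 837517 and 712535 in the GFP- libraries and to 31956 and 28416 in the GFP+ libraries. *Otor*, otoraplin, a secreted protein of cochlear fibrocytes (chromosome 2, 142904209 to 142907449 in NCBIM37), had 121897 and 96860.3 normalized counts in GFP- against 1595 and 1778 in GFP+ libraries. Per kilobase of exon, its level in GFP- cells was 115257, the highest of all genes called there and outside the study's tables.

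The transcription factors of this tissue were lower in GFP+ cells with replicates close to each other. *Pou3f4*, mutated in X-linked deafness, had 22941 and 19945 normalized counts in GFP- and 384 and 483 in GFP+ libraries (log2 fold change -5.64 ± 0.17, adjusted p = 1.09e-05 by edgeR). *Tbx18*, needed for the otic fibrocytes, had 33547 and 23851 against 459 and 508. *Coch*, cochlin, the extracellular protein of spiral ligament and limbus, had 13791 and 14098 against 300.0 and 247, a log2 fold change of -5.66. In each of these 3 genes both GFP- libraries lay far above both GFP+ libraries.

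Collagen genes of connective tissue followed the same pattern, with log2 fold changes of -5.59 for *Col1a2*, -5.52 for *Col3a1* and -4.27 for *Col1a1*. *Fbln1*, a fibulin of the extracellular matrix, had 2536 and 2656 normalized counts in GFP- and 58.1 and 41.5 in GFP+ libraries. The 4 members that were not called were *Lum*, *Emilin2*, *Otos* and *Mfap5*. *Emilin2*, an extracellular glycoprotein, had 4274 and 4029 normalized counts in GFP+ and 4388 and 3221 in GFP- libraries, and its libraries overlapped. *Otos*, otospiralin, another fibrocyte protein, had 37.5 and 44.8 normalized counts in GFP+ and 40.5 and 79.2 in GFP- libraries, which overlapped.

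Bone and cartilage genes were split. Of 13 osteoblast genes, 10 passed the filter on low counts, 7 were called higher in GFP- cells and 0 in GFP+ cells (median -3.76). *Sp7*, *Ibsp* and *Dmp1* passed only through the GFP- libraries and could be called in that direction only. *Bglap*, *Bglap2* and *Mmp13* fell below the filter. *Dmp1*, a matrix protein of osteocytes, had 529 and 535 normalized counts in GFP- and 2.81 and 6.64 in GFP+ libraries (log2 fold change -6.93 ± 0.33, adjusted p = 3.22e-05 by edgeR). *Runx2*, the transcription factor that commits cells to bone, had 1127 and 1195 against 38.4 and 29.9, and *Sp7*, which acts after it, had a log2 fold change of -4.52. *Ibsp*, bone sialoprotein, differed between the GFP- replicates (558 and 213) but lay above 2.81 and 6.64 in both.

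Of the 16 cartilage genes tested, 6 were called higher in GFP- cells and 0 in GFP+ cells (median -1.25). *Acan*, aggrecan, had 370 and 758 raw counts in GFP- and 13 and 10 in GFP+ libraries, and *Ucma*, a cartilage matrix protein, had 105 and 157 normalized counts against 9.37 and 8.30. Collagens that cartilage shares with other tissues of the cochlea were not all called. *Col2a1* was among the most abundant genes of both fractions, with 221096 and 269472 normalized counts in GFP+ and 595104 and 586037 in GFP- libraries, and its log2 fold change of -1.27 passed the test but not the fold criterion. *Col9a2* did not pass the test (adjusted p = 0.787 by edgeR), with 72894 and 84436 against 71059 and 80736, whereas *Col9a1* was called at -2.55 ± 0.13.

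Macrophage genes were the list with the largest share called in GFP- cells. All 20 were tested, 18 were called higher in GFP- cells and 0 in GFP+ cells, and the median was -4.26. Their summed level was 22962 and 17429.6 normalized counts in GFP- libraries and 1741 and 1458 in GFP+ libraries. *Csf1r*, the receptor on which tissue macrophages depend, had 3678 and 2696 against 158 and 103, a log2 fold change of -4.57 ± 0.25 (adjusted p = 5.12e-05 by edgeR). *Cx3cr1*, the fractalkine receptor, and *C1qa*, a complement subunit, had log2 fold changes of -4.35 and -4.61. *Mrc1*, the mannose receptor CD206, was the member with the most counts, 6674 and 5066 in GFP- and 321 and 183 in GFP+ libraries. The 2 members that were not called were *Cd68*, a lysosomal protein (514 and 463 against 963 and 653), and *Laptm5* (-1.83).

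Other blood cells left few counts. Of 22 genes of mast cells, neutrophils and lymphocytes, 7 passed the filter and 3 of these were called higher in GFP- cells (*Mcpt4*, *Cd79b* and *Cd4*, the last also made by macrophages). Except for *Cd4*, these 7 passed only through the fraction in which they are higher, so the count says little of the list. The defining markers *S100a8* and *Cd3e* fell below the filter. The mast cell proteases were present in 1 GFP- library above the other, with 186 and 16.7 normalized counts of *Tpsb2* and 174 and 11.1 of *Cpa3*. *Tpsb2* had no count in either GFP+ library, a bound of at least 26-fold, but it was not called (adjusted p = 0.031 by edgeR). The median of these 7 genes was -3.20 as fitted and -2.93 with genes at 0 set to their bound.

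Hemoglobin genes were higher in GFP- cells, with 4951 and 4807 normalized counts of *Hbb-b1* against 70.3 and 222 and 4615 and 4074 of *Hba-a1* against 101 and 159. These genes have near-identical copies, so their values are uncertain. Of 8 erythroid genes tested, 5 were called higher in GFP- cells and 0 in GFP+ cells. Some of the 8, such as *Hba-a2* and *Slc4a1*, passed the filter only through the GFP- libraries. *Klf1*, the erythroid transcription factor, was not called (29.1 and 46.5 against 24.9 and 19.2).

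Vessel genes lay on the GFP- side, with most endothelial genes below the fold criterion. All 18 endothelial genes were tested, 8 were called higher in GFP- cells and 0 in GFP+ cells, and the median was -1.79. None of the 3 defining markers passed the fold criterion. *Pecam1*, CD31, had 514 and 465 normalized counts in GFP- and 232 and 186 in GFP+ libraries, *Cdh5*, VE-cadherin, a log2 fold change of -1.70 ± 0.15, and *Kdr*, the VEGF receptor, -1.78 ± 0.15. The adjusted p values of these 3 genes were 0.00263, 0.0003 and 0.000214 by edgeR. *Emcn*, endomucin, and *Eng*, endoglin, had the lowest values of the list, with 12265 and 9134 and 4826 and 4132 normalized counts in GFP- libraries and log2 fold changes of -5.73 and -4.53.

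Of 12 pericyte and smooth muscle genes tested, 7 were called higher in GFP- cells and 0 in GFP+ cells (median -3.07). *Rgs5*, a regulator of G protein signaling in pericytes, had 4595 and 4751 normalized counts against 458 and 423, and *Cspg4*, the proteoglycan NG2, had 1618 and 1801 against 59.1 and 64.7. *Abcc9* and *Kcnj8*, which together form the potassium channel of pericytes, were called at -4.07 and -2.74. *Myh11*, the myosin of smooth muscle, was at low counts in all libraries and was not called (39.4 and 69.7 against 53.0 and 123).

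Neuronal genes were higher in GFP- cells with a wide spread between its replicates. Of the 20 genes on the spiral ganglion list, 19 were tested, 13 were called higher in GFP- cells and 1, *Isl1*, in GFP+ cells (median -3.56). *Neurod1* fell below the filter. *Nefl*, the neurofilament light chain, had 436 and 422 normalized counts in GFP+ libraries and 1267 and 4576 in GFP- libraries, and *Tubb3*, the neuronal tubulin, had 235 and 181 against 1021 and 3943. In 17 of the 19 genes, GFP- replicate 2 lay above GFP- replicate 1, by a median log2 of 1.60, but both lay above the GFP+ libraries in the called genes. *Nefm*, the medium chain, was not called (log2 fold change -2.26 ± 0.52, adjusted p = 0.0128 by edgeR). The count of 13 fell to 3 without either GFP+ replicate and was 11 and 14 without GFP- replicate 2 and 1, and *Nefl*, *Tubb3*, *Prph* and *Elavl3* were no longer called without either GFP+ replicate. The count in GFP+ cells was 0 without either GFP+ replicate or without GFP- replicate 1, and *Nefl* had a log2 fold change of -1.57 and was not called without GFP- replicate 2.

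*Ntrk3* and *Ntrk2*, the receptors for neurotrophin 3 and BDNF, did not share this spread. *Ntrk3* had 3072 and 2430.2 normalized counts in GFP- and 61.9 and 79.7 in GFP+ libraries, a log2 fold change of -5.31 ± 0.20, and *Ntrk2* had 3176 and 4317 against 166 and 125. *Isl1*, a LIM transcription factor that the sensory epithelium also makes, was the 1 member called in the opposite direction, with 12560.0 and 11585 in GFP+ and 1743 and 4226 in GFP- libraries. *Gap43*, a protein of growing axons, was called at -4.17 ± 0.44 (adjusted p = 0.000575 by edgeR).

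Genes of Schwann cells and satellite glia were divided between the fractions. Of 18 tested, 8 were called higher in GFP- cells and 1, *Gfra3*, in GFP+ cells, and the median was -1.52. The genes of myelin and of Schwann cell precursors lay on the GFP- side. *Pmp22*, a membrane protein of Schwann cells, had 6819 and 6500.1 normalized counts in GFP- and 842 and 269 in GFP+ libraries, and *Cdh19*, a cadherin of Schwann cell precursors, had 681 and 620.4 against 46.9 and 28.2. The GFP+ replicates of *Pmp22* differed, with replicate 1 above replicate 2, and 15 of the 18 genes were higher in that replicate.

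Other genes of this list were higher in GFP+ cells or close to equal. *Sox10*, which marks glia and the otic epithelium, had 11806 and 11799.5 normalized counts in GFP+ and 3775 and 5771 in GFP- libraries, a log2 fold change of 1.31 ± 0.20. *S100b*, a calcium-binding protein, had 4972 and 5136 against 1279 and 1828. Both *Sox10* and *S100b* were below the fold criterion and were not called. *Fabp7* and *Erbb3*, a fatty acid-binding protein and a neuregulin receptor, were close to equal, with log2 fold changes of -0.19 and -0.16. *Gfra3*, the artemin receptor, was called higher in GFP+ cells from 252 and 173 against 29.1 and 33.4 normalized counts.

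Genes of cell division were lower in GFP+ cells. All 29 were tested, 21 were called higher in GFP- cells and 0 in GFP+ cells, and the median was -2.63. *Mki67*, the antigen Ki-67 of cycling cells, had 7908 and 6494 normalized counts in GFP- and 384 and 388 in GFP+ libraries (log2 fold change -4.22 ± 0.13, adjusted p = 1.16e-05 by edgeR). *Top2a* and *Ccnb1*, of chromosome segregation and entry into mitosis, had log2 fold changes of -3.71 and -3.95. *Bub1*, a kinase of the spindle checkpoint, had 867 and 753 against 48.7 and 46.5. The 8 members that were not called were *Aurka*, *Cenpe* and genes of DNA replication (*Mcm2*, *Mcm4*, *Mcm7*, *Pcna*, *Tyms* and *Hells*), while *Mcm3*, *Mcm5*, *Mcm6* and *Rrm2* were called. *Mcm2* and *Tyms* had log2 fold changes of -0.41 and -0.23, and *Pcna*, the sliding clamp, had 1272 and 1237 in GFP+ and 3521 and 2937 in GFP- libraries. *Cdkn1b*, the inhibitor that keeps supporting cells out of the cycle, had 31444 and 31439 normalized counts in GFP+ and 3434 and 4000.1 in GFP- libraries.

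How much of these genes remained in the GFP+ libraries differed between lists. The level of a member in GFP+ cells was a median of 3.12% of its level in GFP- cells for mesenchyme, 4.16% for melanocytes, 5.12% for macrophages and 8.39% for neurons. It was 16.1% for cell division, 28.8% for endothelium and 36.2% for glia. These are medians over genes with different sources in the organ, and the part that carried-over cells have in them was not tested.

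The 2 lists of epithelium outside the organ of Corti had shares called in GFP- cells near the 11.4% of all genes. All 7 genes of the greater epithelial ridge were tested and 1, which is 14.3%, was called. It was *Epyc*, a proteoglycan, higher in GFP- cells (6762 and 20816 normalized counts against 2313 and 2296). *Crabp1*, a retinoic acid-binding protein, had 429 and 1777 against 247 and 164 and was not called (adjusted p = 0.0235 by edgeR). *Otoa*, otoancorin, had 2108 and 1486 in GFP+ and 1357 and 4145 in GFP- libraries, so that the 2 fractions overlapped. *Fgf10*, a growth factor, had 8091 and 6466 against 713 and 2519.9 and a log2 fold change of 2.16 ± 0.54, and it missed the p criterion (adjusted p = 0.0176 by edgeR). Without GFP- replicate 2, *Epyc* had a log2 fold change of -1.56 and was no longer called, and *Fgf10* had 3.35 and was called. Each of these 7 genes was higher in GFP- replicate 2 than in replicate 1, by a median log2 of 1.62.

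Genes of the lateral wall and stria marginal cells were called higher in GFP- cells at a share of 7.69%, against 11.4% of all genes. Of 14 genes, 13 were tested, 1 was called higher in GFP- cells (*Bmp4*, 1037 and 972 against 163 and 89.6) and 0 in GFP+ cells (median -0.92). *Foxi1* fell below the filter. *Kcnq1* and *Kcne1*, the potassium channel subunits of marginal cells, had 245 and 206 and 123 and 68.1 normalized counts in GFP+ libraries and 128 and 258 and 69.6 and 219.6 in GFP- libraries. The direction of both turned when 1 GFP- library was left out. The highest member was *Slc12a2*, the sodium-potassium-chloride cotransporter, with 10824 and 9364 in GFP+ and 17561 and 30842 in GFP- libraries and a log2 fold change of -1.26.

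The GFP- replicates differed from each other by marker list, and the cause was not tested. Over all genes tested, GFP- replicate 2 was above replicate 1 in 50.4% of genes, with a median log2 of 0.00. It was above in 33 of 34 epithelial genes (median 1.08), 8 of 8 genes of the tectorial list (1.5) and 19 of 20 supporting cell genes (0.74). It was above in 0 of 20 macrophage genes (median -0.41), 0 of 8 erythroid genes (-0.36) and 3 of 29 genes of cell division (-0.13). Hair cell genes were higher in 18 of 30, with a median of 0.17. The list medians of the GFP+ replicates lay between -0.49 for the glia list and 0.76 for the list of other leukocytes, whose 7 tested genes are at low counts. Without GFP- replicate 2, the count of genes called higher in GFP+ cells was 1409 in place of 1206, and without replicate 1 the count in GFP- cells was 2465 in place of 2125.

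**Figure D3:**
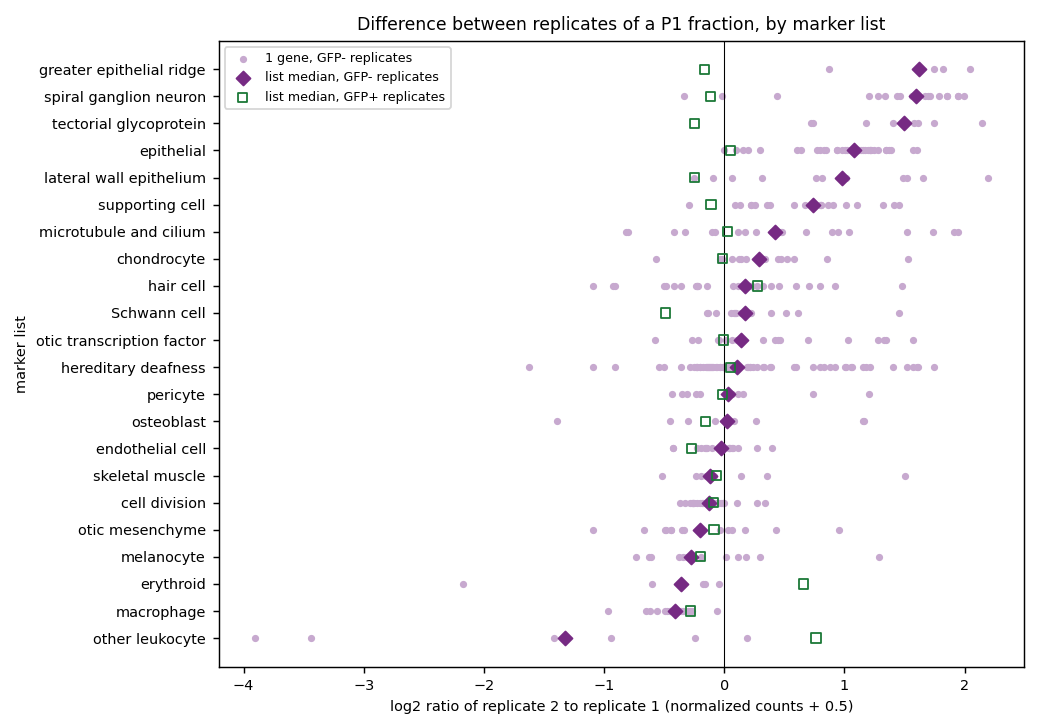
Log2 ratio of replicate 2 to replicate 1 on normalized counts + 0.5 (horizontal axis) for the genes of each marker list (rows). Small points are genes in the GFP- replicates, diamonds their list medians, and open squares the list medians in the GFP+ replicates. The medians of the GFP- replicates run from -1.33 for other leukocytes to 1.62 for the greater epithelial ridge.

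Hair cell genes were higher in the GFP+ cells. All 30 genes of the list were tested, 20 were called higher in GFP+ cells and 0 in GFP- cells, and the median log2 fold change was 3.11. *Atoh1*, the transcription factor that starts hair cell formation (chromosome 6, 64679140 to 64681227 in NCBIM37), had 327 and 392 normalized counts in the GFP+ libraries and 13.5 and 15.5 in the GFP- libraries. *Pou4f3* and *Gfi1*, which act after it, had 518 and 657 and 404 and 491 in GFP+ libraries and 37.4 and 56.9 and 33.2 and 54.4 in GFP- libraries. Both GFP+ libraries lay above both GFP- libraries in these 3 genes, with log2 fold changes of 4.61 ± 0.26, 3.61 ± 0.27 and 3.32 ± 0.29 (adjusted p = 5.61e-05, 0.000155 and 0.00028 by edgeR).

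Genes of the hair bundle and of the synapse were also among those called. *Otof*, otoferlin, needed for transmitter release, had 6473 and 7895 normalized counts in GFP+ and 718 and 649 in GFP- libraries, and it is the 1 gene of this list in the study's tables. *Myo15* and *Loxhd1*, of the stereocilia, had log2 fold changes of 3.30 and 3.37. *Chrna9* and *Chrna10*, which form the receptor for efferent acetylcholine, were called at 3.11 and 3.34. *Rbm24*, an RNA-binding protein of hair cells, had 1743 and 1873 against 92.5 and 127 and *Strc*, stereocilin, 1085 and 1499 against 185 and 98.3. *Slc26a5*, prestin, the motor of outer hair cells, was at 30.0 and 49.8 and 12.5 and 5.57 normalized counts and was not called (adjusted p = 0.0167 by edgeR).

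Several well-known hair cell genes were not called. *Myo7a*, myosin VIIa, had 2659 and 3378 normalized counts in GFP+ and 963 and 823 in GFP- libraries, a log2 fold change of 1.76 ± 0.15 that is below the fold criterion. *Myo6*, which other epithelial cells also use, was close to equal (18996 and 19648 against 15986 and 13603). *Slc17a8*, the glutamate transporter of inner hair cells, had 190.3 and 189 against 178 and 206, and *Pvalb*, parvalbumin, which neurons also make, had 634 and 745 against 619 and 1723; the fractions overlapped in both.

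Per kilobase of exon in GFP+ cells, the mean level was 172 for *Atoh1*, 513 for *Pou4f3* and 562 for *Rbm24*, against 10330.4 for *Sox2* and 1861 for *Lgr5*. The hair cell list took 0.123% and 0.144% of the gene counts of the GFP+ libraries and 0.0589% and 0.0567% of those of the GFP- libraries. Of the 30 genes, 26 were higher in GFP+ replicate 2 than in replicate 1, by a median log2 of 0.28. At P6, 17 of 29 tested members were called higher in GFP+ cells and 0 in GFP- cells (median 3.55). Which cells of the GFP+ gate held these transcripts was not tested.

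Of the 9 supporting cell genes outside the study's tables, 4 were called higher in GFP+ cells. Of all 20 genes on the list, 15 were called higher in GFP+ cells and 0 in GFP- cells (median 3.89); 11 of the 15 are in those tables, *Lfng* of the reporter among them, and the other 4 are *S100a1*, *Aqp4*, *Sox21* and *Lgr5*. *S100a1*, a calcium-binding protein that marks supporting cells, had 32892 and 28815 normalized counts in GFP+ and 525 and 836 in GFP- libraries, and it was the second most abundant gene per kilobase among those called outside the tables (44457 per kilobase in GFP+ cells). *Aqp4*, a water channel, had 722 and 777 against 13.5 and 27.8. *Sox21*, a repressor related to *Sox2*, had 8151 and 7546 against 249 and 664 (log2 fold change 4.08 ± 0.44, adjusted p = 0.000598 by edgeR).

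The 5 members that were not called were *Gjb2*, *Gjb6*, *Ngfr*, *Slc1a3* and *Npy*. *Gjb2* and *Gjb6*, connexins 26 and 30 of the gap junctions, had log2 fold changes of 1.84 ± 0.22 and 1.87 ± 0.14, below the fold criterion. *Ngfr*, the neurotrophin receptor p75 of pillar cells and glia, had 1390.1 and 1605 against 656 and 1794 and its fractions overlapped. *Slc1a3*, the glutamate transporter GLAST, was higher in GFP- cells (14902 and 12186 against 6757 and 6469, log2 fold change -1.03) without being called. *Npy*, neuropeptide Y, had 355 and 272 against 460.3 and 549.

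Genes of epithelial junctions and identity separated the fractions. Of 34 genes tested, 24 were called higher in GFP+ cells and 1, *Grhl3*, in GFP- cells, and the median was 3.13. *Marveld3*, of the tight junction, had 4415 and 4661 normalized counts in GFP+ and 55.1 and 109 in GFP- libraries, a log2 fold change of 5.73 ± 0.28 (adjusted p = 3.48e-05 by edgeR). *Cldn14* and *Ildr1*, of the junctions that seal the organ of Corti, had 824 and 823 and 6602 and 6748 in GFP+ libraries against 30.1 and 63.1 and 207 and 615 in GFP- libraries. *Esrp2* and *Esrp1*, regulators of epithelial splicing, were called at 4.25 and 3.31, and *Epcam*, an adhesion molecule, had 29111 and 30069.7 against 1604 and 3712. In 5 members both GFP- libraries lay above both GFP+ libraries, among them *Grhl3*, *Krt19* and *Dsp*. *Grhl3*, a transcription factor of surface epithelium, had 5.62 and 3.32 against 32.2 and 32.2. *Krt19* had 133 and 58.1 against 259.7 and 463, and *Dsp*, desmoplakin, 228 and 129 against 308 and 618. The last 2 were not called.

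Of 21 otic transcription factors tested, 9 were called higher in GFP+ cells and 0 in GFP- cells (median 1.83). Of those outside the study's tables, *Sall1*, a zinc finger protein, had 20201 and 19198 normalized counts in GFP+ and 469.6 and 586 in GFP- libraries (log2 fold change 5.22 ± 0.15), *Rorb*, an orphan nuclear receptor, 1374 and 1212 against 53.0 and 43.9, and *Nr2f1*, another one, 26019.8 and 26718 against 6436 and 6732. The early otic regulator *Eya1* was present in both fractions, with a log2 fold change of 1.29, and *Sox9* had 7819 and 9482 against 4008 and 5452. *Dlx5* fell below the filter.

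Genes of the tectorial membrane and related matrices differed among themselves. Of 9 listed, 8 were tested and 4 were called higher in GFP+ cells (median 2.35), and *Otogl* was not matched to the annotation. *Otol1*, otolin, the 1 of these 4 outside the study's tables, had 2912 and 2384 normalized counts in GFP+ and 209 and 344 in GFP- libraries. *Tecta*, the main glycoprotein of the tectorial membrane, had 148555 and 132447 against 23591 and 79163, and it was not called (adjusted p = 0.0592 by edgeR). *Oc90*, otoconin 90, had 11997 and 5196 in GFP+ and 18528 and 30998 in GFP- libraries, a log2 fold change of -1.52 ± 0.43.

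Microtubule genes were called in both directions. Of 22 tested, 6 were called higher in GFP+ and 5 higher in GFP- cells, and the median was 0.08. *Tsga14*, now called *Cep41*, a centrosomal protein tied to tubulin glutamylation, had 38852 and 41393 normalized counts in GFP+ and 608 and 977 in GFP- libraries, and *Tppp*, which bundles microtubules, had 2307 and 2485 against 109 and 315. *Tekt1*, a tektin of ciliary microtubules, and *Foxj1*, the regulator of motile cilia, were called at 4.10 and 2.07. Those called in GFP- cells, *Stmn3*, *Tubb3*, *Mapt*, *Mtap2* and *Tppp3*, include neuronal genes, and *Mapt*, tau, had 1638 and 5455 against 397 and 443. *Tuba1a*, an alpha-tubulin, was abundant in both fractions (31725 and 30219 against 17752 and 24804).

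Genes of hereditary deafness lay mostly on the GFP+ side. Of 67 listed, 65 were tested, 25 were called higher in GFP+ cells and 4 in GFP- cells (median 1.70); many of them are also on the hair cell and epithelial lists. *Tmprss3*, a transmembrane serine protease, had 15169.6 and 14857 normalized counts in GFP+ and 206 and 378 in GFP- libraries (log2 fold change 5.66 ± 0.30, adjusted p = 4.17e-05 by edgeR). *Cabp2*, a calcium sensor of hair cell synapses, had 206 and 227 against 6.23 and 6.19, and *P2rx2*, an ATP-gated channel, 2454 and 2781 against 151 and 252. The 4 called in GFP- cells were *Coch*, *Pou3f4*, *Crym* and *Dfna5*. *Crym*, mu-crystallin, had 33628 and 30631 against 1457 and 1438, and *Dfna5*, now called *Gsdme*, a gasdermin, 283 and 260.4 against 64.7 and 51.5.

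Genes of skeletal muscle were split between the fractions. Of 15 listed, 8 were tested, 2 were called higher in GFP+ and 2 higher in GFP- cells, and the defining *Myog* and *Myod1* fell below the filter. *Tnnt1*, slow troponin T, had 2251 and 2266 normalized counts in GFP+ and 91.4 and 82.3 in GFP- libraries, a log2 fold change of 4.71 ± 0.13 (adjusted p = 9.99e-06 by edgeR). *Chrna1*, the alpha subunit of the acetylcholine receptor of the nerve-muscle junction, had 266 and 325 against 68.6 and 60.0. *Chrnd*, its delta subunit and on none of the lists, was among the largest folds, with 313 and 291 against 3.12 and 3.09 (log2 fold change 6.55 ± 0.31). *Tnnt3*, fast troponin T, was called in the other direction from 73.8 and 51.3 in GFP- against 0.937 and 4.98 in GFP+ libraries.

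The largest folds outside the study's tables, counting only genes whose higher fraction averaged 100 normalized counts or more, were led in GFP+ cells by *Rtp2*, a chaperone of olfactory receptors. It had 209 and 193 normalized counts in GFP+ libraries and 1 count over both GFP- libraries, a ratio of 524 with a 95% exact counting interval of 93.4 to 20750. *Fgf20*, a growth factor of the developing organ of Corti, had 528 and 455 against 2.08 and 1.24. *Trim50*, a ubiquitin ligase, had 1109.9 and 1121 against 5.19 and 8.66 (log2 fold change 7.24 ± 0.24, adjusted p = 1.26e-05 by edgeR). In all 20 genes of this rank the GFP- libraries held at most 83.5 normalized counts.

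Others of the 20 were genes of varied kinds. *Trh*, the precursor of thyrotropin-releasing hormone (chromosome 6, 92192055 to 92194644 in NCBIM37), had 2738 and 3039.5 normalized counts in GFP+ and 33.2 and 30.9 in GFP- libraries, a log2 fold change of 6.5 ± 0.14 (adjusted p = 9.99e-06 by edgeR). *Galr1*, a galanin receptor, had 223 and 257 against 0 and 2.47. *Gpr144*, named as an adhesion receptor but typed as a pseudogene in the annotation used, had 543 and 624 against 6.23 and 4.95. *Alox15*, a lipoxygenase of arachidonic acid, had 1180.2 and 1379 against 12.5 and 15.5, and *F12*, coagulation factor XII, 349 and 483 against 2.08 and 6.19. *Prdm12*, a regulator of pain neurons, had 399 and 471 against 0 and 5.57, *Lim2*, a membrane protein of the lens, 363 and 453 against 3.12 and 2.47, and *Dsg3*, a desmosomal cadherin, 194 and 201 against 2 counts over both GFP- libraries. The other members were *Lrrn4*, *Akr1cl*, *Clnk*, *Fam124b* and 4 predicted or unnamed genes, with log2 fold changes between 6.31 and 7.78.

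In GFP- cells, 4 of the 20 largest folds outside the tables were genes of the melanocyte list (*Tyr*, *Pax3*, *Slc45a2* and *Dct*) and 2 were genes of the osteoblast list (*Dmp1* and *Ibsp*), beside *Gpnmb*. *Nov*, a matricellular protein also called CCN3, was the most abundant, with 20242 and 17782 normalized counts in GFP- and 204 and 199 in GFP+ libraries (log2 fold change -6.56 ± 0.13, adjusted p = 9.99e-06 by edgeR). *Tnfaip6*, a hyaluronan-binding protein, had 2191 and 2501 against 18.7 and 19.9, and *Rgs8*, a regulator of G protein signaling, 552 and 483 against 6.56 and 3.32. *Hoxa2*, a homeobox gene of the second branchial arch, had 228 and 209 against 2.81 and 1.66. *Cd244*, a receptor of natural killer cells, had 365 and 229 against 3 counts over both GFP+ libraries. *Gpr149*, an orphan receptor, was 294-fold higher by its counts (95% exact counting interval 52.6 to 11656). *Rxfp3*, the relaxin-3 receptor, had 109 and 244; it lies next to *Slc45a2* on chromosome 15 (10963472 to 10967723 against 10930476 to 10958988 in NCBIM37). *Chodl*, chondrolectin, differed between the GFP- replicates (161 and 692).

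**Figure D4:**
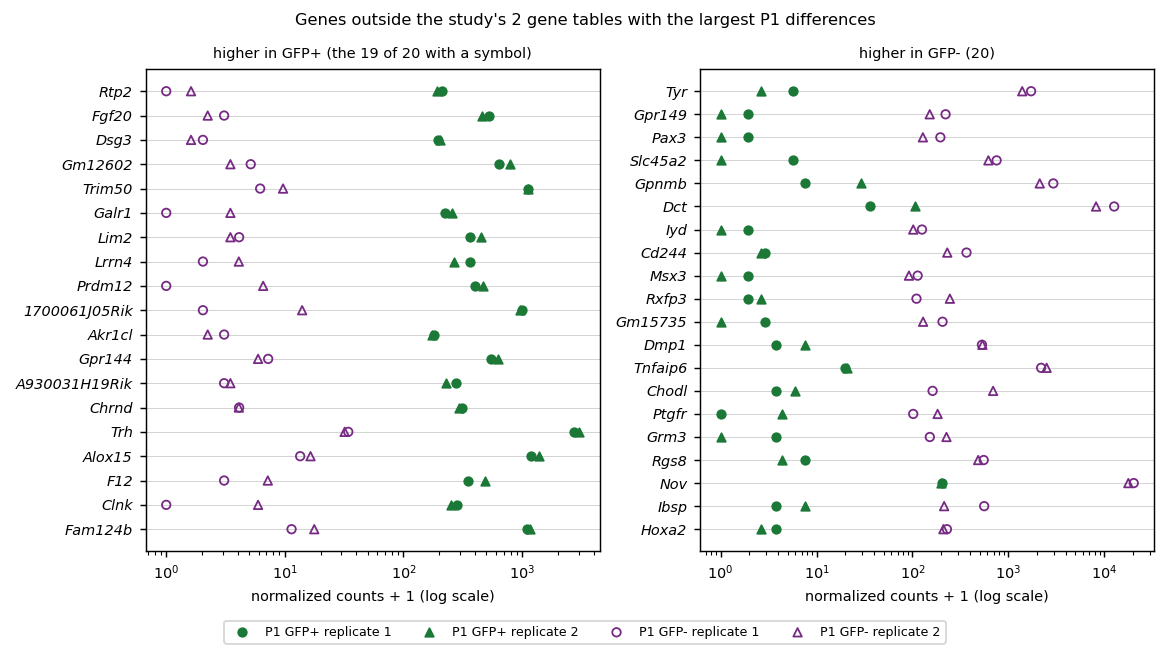
Normalized counts + 1 on a log scale in the 4 P1 libraries for the genes outside the study's tables with the largest folds, higher in GFP+ cells (left, 19 genes with a symbol) and in GFP- cells (right, 20 genes). Symbols are as in the plot of the defining markers. In every gene the libraries of the higher fraction lie above those of the other, as they do in all 1206 and 2125 genes called.

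By level per kilobase of exon rather than by fold, the genes called in GFP+ cells and outside the tables were led by *Igfbp5*, a binding protein of insulin-like growth factors, with a mean of 65162 per kilobase in GFP+ and 15773 in GFP- cells. Its log2 fold change of 2.05 ± 0.16 was just past the fold criterion, and it was 1.94 with library totals only and 1.98 without GFP- replicate 1. *Skp1a* and *Fbxo2*, a ubiquitin ligase subunit and an F-box protein that are known to be abundant in the organ of Corti and to bind each other, had 28535 and 19075 per kilobase and log2 fold changes of 2.72 and 2.87. *Anxa5*, a calcium-dependent lipid-binding protein, had 24816 per kilobase, and *Gpc1*, a glypican, 13129.7. In GFP- cells the highest were *Otor* (115257 per kilobase), *Col9a1* (26558), *Col3a1* (24314), *Col1a2* (23262), *Car3*, carbonic anhydrase 3 (20666), and *H19*, an imprinted non-coding RNA (18461). A microRNA row of very short length that ranked second is left out, since a level per length is uncertain there.

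The genes called at P1 were set beside the P6 libraries, which share no sample with them. Since the dissection also differed, age and the tissue left in the GFP- fraction cannot be told apart in this comparison. At P6, 18294 genes were tested, 892 were called higher in GFP+ cells (4.88%) and 567 in GFP- cells (3.1%). Of the 1206 genes called in GFP+ cells at P1, 589 were called the same way at P6, which is 48.8% of the P1 calls and 66% of the P6 calls, and 1 was called the other way. Of the 2125 called in GFP- cells at P1, 446 were called the same way, 21% of the P1 calls and 78.7% of the P6 calls, and 4 the other way. Of the latter, 1997 of the 2062 that were tested at P6 kept their sign. Without P6 GFP+ replicate 2 the second overlap was 1488 and the count of P6 calls in GFP- cells 2156. Without P6 GFP- replicate 2 edgeR called 0 genes at P6, with 2327 and 2817 at an unadjusted p below 0.05 in GFP+ and GFP- cells and 776 and 782 called by DESeq2.

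By list, 18 of 20 macrophage genes were called higher in GFP- cells at P6, where *Laptm5* was called and *Cd163* was not. For cell division it was 0 of 29 genes, for endothelium 0 of 18 and for neurons 1 of 19. Since 3.1% of all genes were called in that direction at P6, the last 3 counts are near the share of all genes and say little of these lists. The median of the cell division list was -2.63 at P1 and -1.42 at P6, and that of the endothelial list -1.79 and 0.26. *Mki67* had a log2 fold change of -2.15 at P6 and *Tyr* -3.51. An interaction term for age by fraction, fitted to the 8 libraries, tested the difference between the ages. In it the P1 ratio of GFP+ to GFP- was above the P6 ratio in 190 genes (0.988% of 19233 tested) and below it in 182 (0.946%) at an adjusted p below 0.01. With single libraries of either age left out, these counts ranged from 15 to 748 and from 13 to 1044, and they were 16 and 16 without P1 GFP+ replicate 1.

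**Figure D5:**
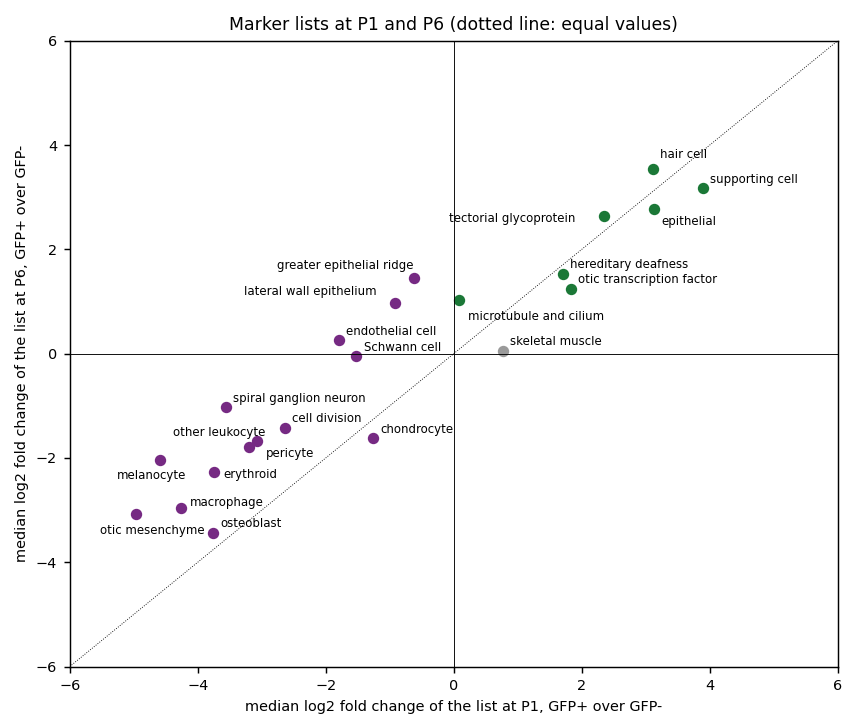
Median log2 fold change of GFP+ over GFP- cells of each marker list at P1 (horizontal axis) and at P6 (vertical axis), 1 point a list. Green points have more members called in GFP+ cells at P1, purple points more in GFP- cells, and the grey point equal numbers. Hair cell, supporting cell and epithelial lists lie at the upper right, and most lists of the GFP- side lie above the line of equal values.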

How the data were processed

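RNA was taken from GFP+ and GFP- cells of P1 and P6 cochleas, 2 libraries a group, sequenced as paired-end poly-A libraries that keep no strand. The authors deposited whole-number counts per Ensembl gene and library, made with TopHat and HTSeq on mm9 (NCBIM37), and the submitters' processing notes name TopHat 1.4.0 and DESeq 1.9.2. The counting mode is not given in the sources used here. Rows that name no gene stayed out. They were reads on no feature (19.39 to 25.6% of P1 reads), ambiguous (2.052 to 2.309%) and not unique (7.618 to 8.281%).

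The 4 P1 libraries were fitted with edgeR 4.0.16 (R 4.3.3): TMM scaling, a filter on low counts (minimum count 10, minimum total 15), the quasi-likelihood test and Benjamini-Hochberg adjustment over all genes tested. Called genes had p and adjusted p below 0.01 and a fold above 4. P6 was fitted alike, and the age difference as an interaction over 8 libraries. DESeq2 1.42.0, other scalings and filters, thinning, a replicate block and leaving out each library were alternatives. The procedure was tested on simulated data. Same-numbered libraries did not deviate together (correlation 0.0105 at P1 and 0.0779 at P6), so replicate numbers name libraries only.

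Named genes outside the study's 2 tables were the 20 with the largest fold in each direction (averaging 100 normalized counts or more where higher), the 10 highest per kilobase, the defining and furthest members of each list, and the 5 largest age differences in each direction. Other list members are named to show those not called and were chosen after their values were seen. The members and lists were chosen with earlier results of these data known. *Otogl*, *Ahsp* and *Lrtomt* were not matched to the annotation. Promoters are from RefSeq on GRCm38.p6, while gene positions are on NCBIM37. Some genes are not reported here.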

Additional observations from a re-analysis of the deposited data

Results flagged for a closer look

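The log2 ratio of GFP+ to GFP- cells differed between P1 and P6 in the genes given here, by edgeR's test of an age by fraction term in a fit of the 8 libraries (adjusted p below 0.01). They are the 5 with the largest difference in each direction among genes called at P1, so their P1 values were part of how they were chosen. Values are log2 ratios, and differences are given ± SE.

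The ratio was higher at P1 in 5 genes. *Dsg3*, a desmosomal cadherin, had 7.78 at P1 and 0.70 at P6, a difference of 7.08 ± 0.68. *Syt6*, a synaptotagmin, had 6.23 at P1 and 0.33 at P6, a difference of 5.92 ± 0.39. *Tal1*, a transcription factor of blood and some neurons, had 5.97 at P1 and 0.10 at P6, a difference of 5.87 ± 0.33. *Galr1*, a galanin receptor, had 7.19 at P1 and 1.56 at P6, a difference of 5.64 ± 0.69. *Col4a3*, a chain of basement membrane collagen, had 4.64 at P1 and -0.55 at P6, a difference of 5.21 ± 0.59.

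It was lower at P1 in the other 5. *Pcsk2*, a prohormone convertase, had -4.67 at P1 and 1.55 at P6, a difference of -6.21 ± 0.24. *Vtn*, vitronectin, had -4.21 at P1 and 2.00 at P6, a difference of -6.20 ± 0.31. *Ighm*, the immunoglobulin mu chain, had -3.76 at P1 and 2.17 at P6, a difference of -5.91 ± 0.41. *AI593442* had -5.43 at P1 and -0.45 at P6, a difference of -4.96 ± 0.57. *Dclk3*, a kinase, had -4.49 at P1 and 0.41 at P6, a difference of -4.90 ± 0.55. *Vtn* and *Ighm* were called higher in GFP- cells at P1 and in GFP+ cells at P6. The age differences of *Dsg3*, *Galr1*, *Col4a3*, *Ighm*, *AI593442* and *Dclk3* were no longer called under at least 1 of the replicate block and the fits without 1 library.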

How the results depend on the processing

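The P1 counts of 1206 and 2125 genes stayed within 1.5 times under every alternative except edgeR's test against a fold of 4, which called 485 in GFP+ and 1015 in GFP- cells, with 56 and 84 list members in place of 91 and 132. With 1 library left out they ranged from 861 to 1409 and from 1504 to 2465, and the list members from 80 to 96 and from 113 to 143. The replicate block gave 1101 and 1992 P1 calls. P6 and age results moved more. The 567 P6 calls in GFP- cells became 295 with library totals only, 1211 with DESeq2, 1473 with no filter on low counts and 955 with the replicate block, and the P1 calls in GFP- cells called the same way at P6 became 231, 977, 1124 and 769. The age differences (190 above and 182 below) became 548 and 891 with DESeq2, 742 and 1658 with no filter, and 17 and 18 with the replicate block. With 1 library left out, P6 calls ranged from 0 to 1105 in GFP+ and 0 to 2156 in GFP- cells, age differences from 15 to 748 above and 13 to 1044 below, and P1 calls called alike at P6 from 0 to 670 and 0 to 1488. With 1 library left out, *Otoa* ranged from -1.23 to 0.41 and *Kcne1* from -1.18 to 0.49, both changing sign without P1 GFP- replicate 2, and *Kcnq1* from -0.22 to 0.82, changing sign without P1 GFP- replicate 1. The cause was not tested. Of 203 named genes, 151 kept their call and direction under every P1 alternative. Of the counts by marker list, 28 moved by over 1.5 times with 1 library left out and 148 did not. Genes with under 4 counts in a fraction have folds limited by depth.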
